A study of Mus musculus with 35 samples.

Results

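The miRNAs described here are 7 that mark or act in cells of the immune system, measured in whole mouse liver after a single exposure to N-ethyl-N-nitrosourea (ENU), an alkylating mutagen and carcinogen. They are mmu-miR-150 and mmu-miR-155, which are tied to lymphocytes, mmu-miR-142-3p and mmu-miR-142-5p, the arms of a miRNA found across blood cells, mmu-miR-223, which is typical of myeloid cells, and mmu-miR-146a and mmu-miR-146b, which are induced during inflammation. They were picked by the number in their names on the PCR array and make up 7 of its 376 miRNA assays. The mice were Big Blue transgenic females, 6 months old at treatment, each given 1 intraperitoneal injection of 120 mg/kg ENU or of the vehicle dimethylsulfoxide (DMSO). ENU livers were taken on post-treatment day (PTD) 1, 3, 7 and 15 from 5 mice each and on PTD 30 and 120 from 4 mice each. DMSO livers came from 3 mice labelled day 1 and 4 mice labelled day 30, and these 7 formed the control group for every PTD. All mice therefore share the transgene, sex and age at injection, while no DMSO mouse was kept to PTD 120.

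A miRNA binds messenger RNAs mainly through its seed, the bases near its 5′ end, and lowers their translation or stability. In a healthy liver most RNA comes from hepatocytes, and the immune-cell miRNAs come from resident macrophages (Kupffer cells), intrahepatic lymphocytes and blood held in the vessels. miR-150 restrains the transcription factor Myb in mature lymphocytes, and miR-155 rises when lymphocytes and macrophages are activated. miR-223 accumulates as granulocytes mature, and the miR-146 miRNAs damp Toll-like receptor signalling through Traf6 and Irak1.

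The mature sequences are shown because the seeds tell which of these miRNAs can share targets and because both miR-142 assays read arms of a single hairpin. They are RefSeq sequences, matched for 6 of the 7 miRNAs, written 5′ to 3′ with the seed (bases 2 to 8) in capitals.
miR-142-3p: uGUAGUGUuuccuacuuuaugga
miR-142-5p: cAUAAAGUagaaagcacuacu
miR-146a: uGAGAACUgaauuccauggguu
miR-146b: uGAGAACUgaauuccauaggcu
miR-155: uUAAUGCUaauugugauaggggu
miR-223: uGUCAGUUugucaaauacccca

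The 6 sequences hold 5 distinct seeds, since miR-146a and miR-146b share theirs. These 2 differ at 2 positions outside the seed, G18A and U21C, counted from the 5′ end with the base of miR-146a first, so a PCR primer may not separate them fully. In the GRCm38.p6 assembly the arms of miR-142 lie on the plus strand at chr11:87756867-87756887 (5p) and chr11:87756903-87756925 (3p). miR-146a lies on the minus strand of the same chromosome at chr11:43374435-43374456. miR-146b lies at chr19:46342790-46342811, miR-155 at chr16:84714143-84714165 and miR-223 at chrX:96242884-96242905, all on the plus strand.

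The level of a miRNA is given as -ΔCt, the mean Ct of 4 small reference RNAs (snoRNA251, snoRNA202, snoRNA142 and U6) minus the Ct of the miRNA on the same array. It is a log2 scale on which a higher value means more miRNA, so a difference of 1 is a fold of 2. Levels of different assays were not calibrated against each other. Every one of the 7 miRNAs gave a Ct in all 35 arrays, from 20.0 for miR-142-3p to 29.7 for miR-142-5p. The liver label was checked with the hepatocyte miRNA miR-122, which had the lowest mean Ct of all 376 assays, 14.5. The run records put the arrays in 3 run periods. Period 1 held the 3 day 1 controls, 4 of the 5 PTD1 samples and all of PTD3, PTD7 and PTD15. Period 2 held 2 day 30 controls, the remaining PTD1 sample and all of PTD30 and PTD120, and period 3 held only the other 2 day 30 controls.

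The control livers themselves were not uniform. For miR-150 the 3 day 1 controls lay at -3.28, -3.26 and -3.22 and the 4 day 30 controls at -2.27, -2.19, -2.19 and -1.77, so the sets did not overlap. The day 30 controls were higher in miR-150 by 1.15, in miR-223 by 1.38, in miR-146a by 1.39 and in miR-146b by 1.52, each with an exact permutation p of 0.0286, the smallest that 3 against 4 samples allow. For miR-155 the difference was 0.98 (exact p = 0.0571), again without overlap. The 2 miR-142 arms overlapped, with differences of 0.99 for miR-142-3p and -0.46 for miR-142-5p. This shift ran across the array, because 47.9% of all 376 miRNAs were higher without overlap in the day 30 controls and the median difference was 1.00. The day of a control and its run period cannot be told apart, and the main results against the pooled controls are therefore given beside values within a run period.

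**Figure D1:**
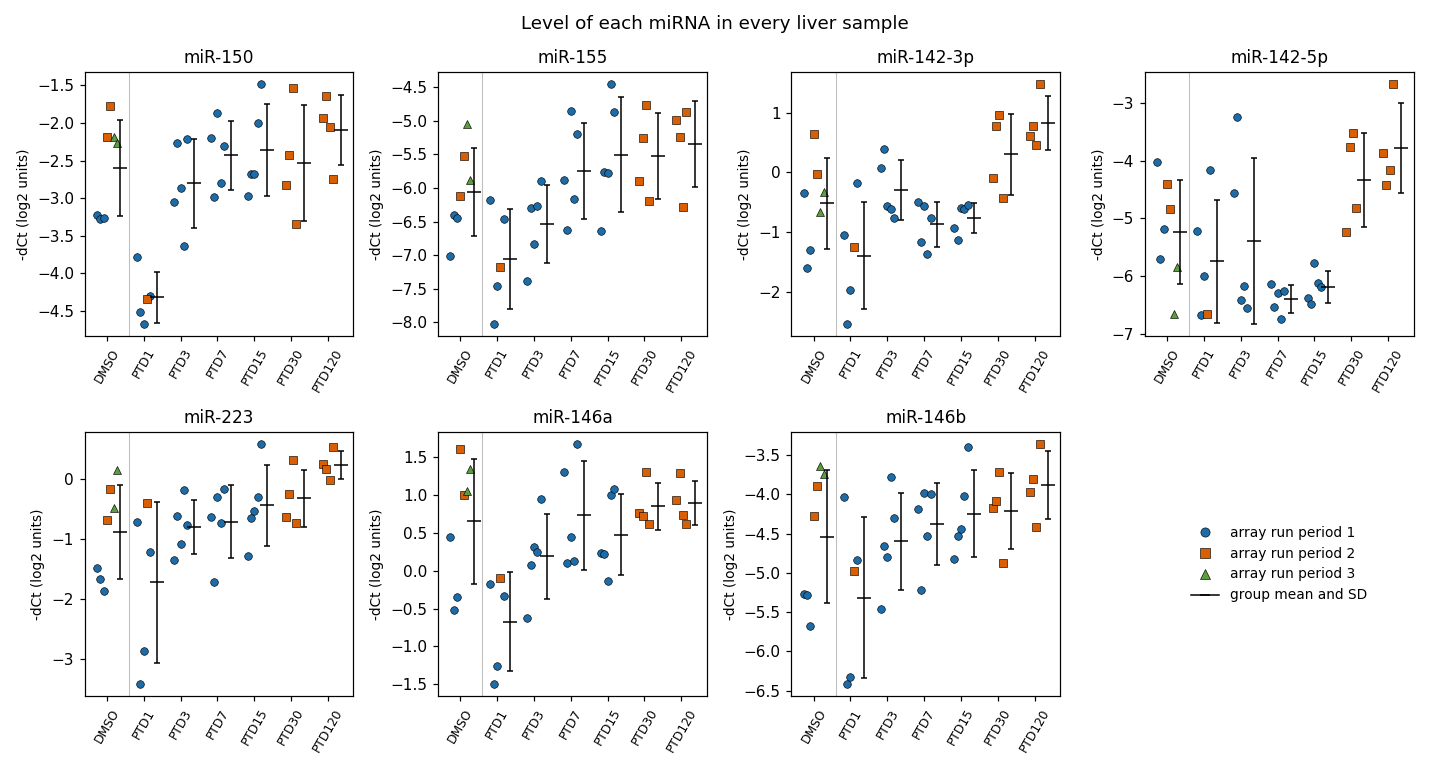
The -ΔCt (log2 units, written -dCt on the axis) of each miRNA in all 35 livers, by group, with the array run period as colour and shape and the group mean and SD beside the points. miR-150 at PTD1 lies between -4.67 and -3.78, below all 7 controls, while the other 6 miRNAs overlap their controls at every PTD.

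On PTD1 miR-150 fell. Its levels in the 5 ENU livers were -3.78, -4.51, -4.67, -4.34 and -4.29, against a lowest value of -3.28, a median of -2.27 and a highest of -1.77 in the controls. All 5 ENU livers were below all 7 controls, a separation that 0.266% of the 376 miRNAs showed in this direction, which is miR-150 alone. The mean fell by 1.72 ± 0.37 (SE, n = 5 against 7), to a level 3.30-fold lower than in the controls (limma p = 0.000286, adjusted p = 0.108, exact permutation p = 0.00126). miR-150 thus passed the study's threshold (unadjusted p under 0.01 and a fold above 2) but not an adjusted p under 0.05.

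In bulk liver, fewer immune cells and less of a miRNA per cell cannot be told apart.

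The size of the miR-150 change depended on the controls. Within run period 1 the 4 ENU livers lay between -4.67 and -3.78 and the 3 controls between -3.28 and -3.22, again without overlap, as 0.532% of all miRNAs did in this direction. The difference there was -1.06 (exact p = 0.0571), and miR-150 did not pass the threshold in that smaller set or against the 3 day 1 controls alone (-1.065). In run period 2 the single PTD1 liver was at -4.34 and the 2 controls at -2.19 and -1.77. With run period as a block in 1 fit of all 35 arrays the difference was -1.42 ± 0.36 (limma adjusted p = 0.148). When an array's own median Ct replaced the reference RNAs, which takes out a shift shared by most assays, it was -1.35 ± 0.23 with a limma adjusted p of 0.0198. The same scale within run period 1 gave -1.325 ± 0.31 (limma adjusted p = 0.307), past the threshold of p and fold.

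miR-146a, the feedback brake on Toll-like receptor signalling, was the other miRNA of the group to pass the threshold on PTD1. Its levels were -0.18, -1.50, -1.26, -0.10 and -0.335 in the ENU livers, against -0.52, 1.00 and 1.61 as the lowest, median and highest control. All 5 ENU livers lay below the control mean of 0.65, but 3 of them lay above the lowest control. The difference was -1.33 ± 0.45 (limma p = 0.00984, adjusted p = 0.669, exact p = 0.0202), a level 2.51-fold lower. It was -0.67 within run period 1 (exact p = 0.286), and on the scale of the median Ct it was -0.955. The call held without PTD1 replicate 4 or day 1 control replicates 2 or 3, left out singly, and was lost without any 1 of the other 9 samples, with differences from -1.45 to -1.12.

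So 2 of the 7 miRNAs passed the threshold on PTD1, both lower, against 0.798% of all 376 that were lower and 1.33% in either direction. That 0.798% is 3 miRNAs, these 2 among them. The 7 were chosen with earlier results of these data known, so the share is no independent measure for them. At an unadjusted limma p under 0.05 there were 3 of 7, against 5.05% of all. The other 5 were also lower on average than the pooled controls. The activation miRNA miR-155 stood at -6.17, -8.02, -7.46, -7.18 and -6.46, all below the control mean of -6.06, with a difference of -0.995 ± 0.42 (exact p = 0.0328). miR-142-3p differed by -0.88, miR-223 by -0.835, miR-146b by -0.77 and miR-142-5p by -0.51, and none of these had a limma p under 0.05. The median over the 7 was -0.88 and the median over all 376 miRNAs was -0.365. On the scale of the median Ct all 7 were still below 0, from -1.35 for miR-150 to -0.14 for miR-142-5p. In run period 1 these 5 differed from the controls by between -0.54 and 0.008, each with overlap.

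Markers of other cells were read beside these PTD1 values. The 10 other leukocyte or inflammation miRNAs on the array (miR-342, miR-181, miR-132, miR-212, miR-147 and miR-21 assays) had a median difference of -0.40, and 0 of 10 passed the threshold. miR-342-3p, which is also abundant in lymphocytes, differed by -0.705 ± 0.31 (limma adjusted p = 0.669). The 3 hepatocyte miRNAs had a median of -0.685, the 2 endothelial ones -0.77, the 3 mesenchymal ones -0.35 and the 3 erythroid ones 0.43, and none passed. The mean -ΔCt of the hepatocyte miRNAs ran from 3.95 to 5.63 over the PTD1 livers and from 4.53 to 6.53 over the controls. The part of these lists in the values of the 7 miRNAs was not tested.

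**Figure D2:**
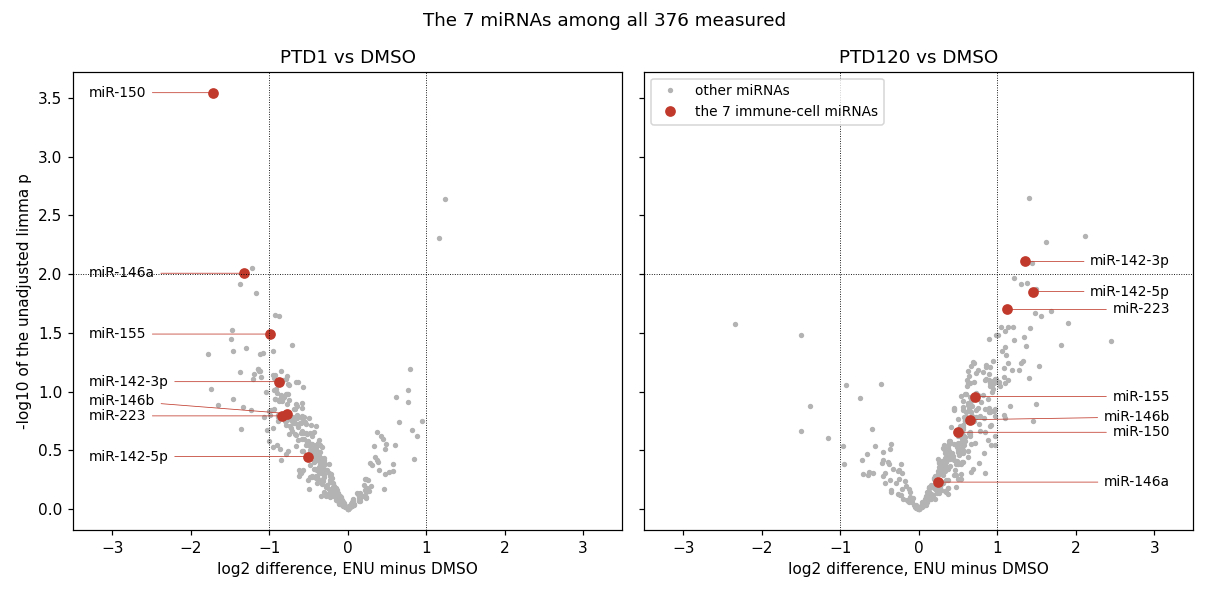
All 376 miRNAs on PTD1 (left) and PTD120 (right), with the log2 difference from the 7 controls against -log10 of the unadjusted limma p. The 7 immune-cell miRNAs are in red and dotted lines mark a fold of 2 and a p of 0.01. miR-150 on PTD1 has the smallest p of that panel, 0.000286, and miR-142-3p on PTD120 lies just past both lines.

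Between PTD1 and PTD3 miR-150 rose again. Its levels on PTD3 were -3.05, -2.26, -2.86, -3.63 and -2.21, all above the highest PTD1 level of -3.78. The rise was 1.515 ± 0.38 (limma p = 0.00161, adjusted p = 0.151, exact p = 0.00794), or 2.86-fold. Of the 7 miRNAs 1 passed the threshold in this comparison, against 2.93% of all 376, and 2.13% of all were higher without overlap. That count rested on the fit. With run period as a block 4 of 7 passed, miR-150 at 1.665, miR-142-3p at 1.28, miR-223 at 1.203 and miR-146a at 1.095, against 16.5% of all miRNAs. In 1 fit of all groups 2 of 7 passed, miR-150 and miR-142-3p, against 6.12%. The fit of the 2 days alone uses no control and does not rest on their spread, while the last 2 fits include the controls. Within run period 1 the rise of miR-150 was 1.51 with 4 PTD1 livers. All 7 miRNAs were higher on PTD3 than on PTD1, by 0.36 to 1.10 for the other 6, with a median over the 7 of 0.86 and over all miRNAs of 0.47. Of the marker lists, the 3 hepatocyte miRNAs had a median of 0.89, the 2 endothelial 1.025, the 3 mesenchymal 0.75 and the 3 erythroid -0.17, none past the threshold. The 10 other leukocyte or inflammation miRNAs had a median of 0.38, from -0.19 for miR-212 to 1.515 for miR-21*, the minor strand of miR-21. miR-21* was the 1 of 10 to pass (limma adjusted p = 0.311), at a mean Ct of 30.8. miR-21 itself had a mean Ct of 16.8, rank 2 from the lowest of all 376 assays. The part of these lists in the rise of the 7 miRNAs was not tested. miR-142-3p had a difference of 1.10 ± 0.47 (exact p = 0.0476), which passed the threshold at 1.405 when PTD1 replicate 5 was left out. On the next steps, from PTD3 to PTD7 and from PTD7 to PTD15, none of the 7 passed, against 1.06% and 1.6% of all miRNAs.

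From PTD3 to PTD15 miR-150 stayed close to the pooled controls. It stood between -2.98 and -1.87 on PTD7 and between -2.97 and -1.48 on PTD15, with differences from the controls of -0.205, 0.17 and 0.24 on PTD3, PTD7 and PTD15. Each range overlapped that of the controls. Against the pooled controls none of the 7 miRNAs passed the threshold in limma on these days, against 2.13% of all miRNAs on PTD3, 9.84% on PTD7 and 11.4% on PTD15. At an unadjusted p under 0.05 there were 0 on PTD3 and 1 each on PTD7 and PTD15, both times miR-142-5p, against 10.4%, 24.5% and 29.0% of all. With run period as a block miR-142-5p passed on PTD7 and miR-223 on PTD15. Within run period 1 miR-142-5p passed on PTD7 and miR-146b on PTD15.

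Set against the 3 day 1 controls, with which they shared run period 1, the same livers looked different. miR-150 was then 0.82 higher on PTD7 (exact p = 0.0357) and 0.89 higher on PTD15 (exact p = 0.0536), without overlap. miR-223, the granulocyte miRNA, was 0.87 higher on PTD3 (exact p = 0.0357), 0.96 on PTD7 (exact p = 0.0893, with overlap) and 1.235 on PTD15 (exact p = 0.0536). miR-146b was 1.03 higher on PTD7 (exact p = 0.0357) and 1.16 on PTD15 (exact p = 0.0179, the smallest that 5 against 3 samples allow). miR-155 differed by 0.875 on PTD7 and 1.12 on PTD15, with overlap. A position above all 3 day 1 controls, where stated, was common on the array, held by 20.7% of all miRNAs on PTD3, 35.4% on PTD7 and 44.4% on PTD15, shares against which these miRNAs are not set apart.

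**Figure D3:**
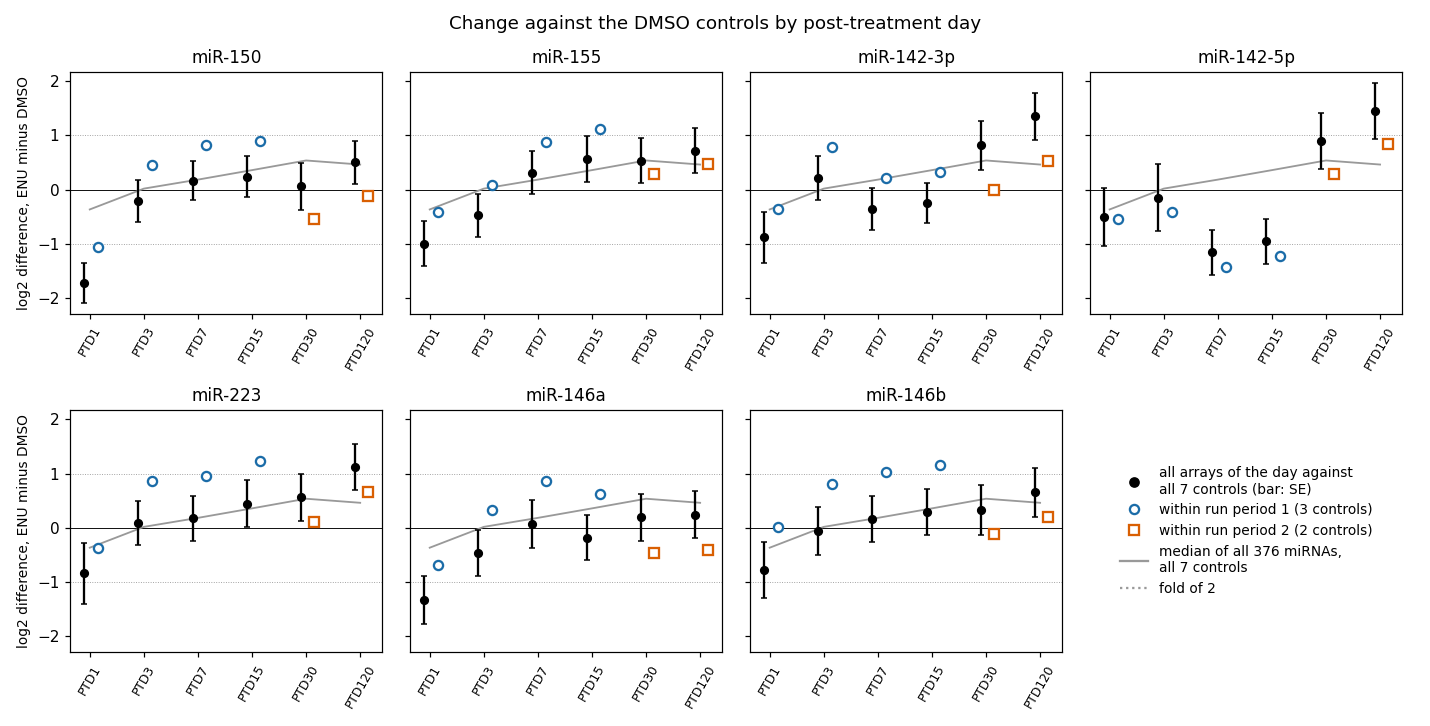
Log2 difference from DMSO on each PTD for the 7 miRNAs. Filled points use all 7 controls (bars, SE), open circles and squares use only the controls of run periods 1 and 2 (the single PTD1 liver of period 2 is left out), the grey line is the median of all 376 miRNAs and dotted lines mark a fold of 2. Open circles lie above filled points for 6 miRNAs on PTD3, PTD7 and PTD15, and below them only for miR-142-5p.

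The arms of miR-142 had different values on PTD7 and PTD15. miR-142-5p was at -6.14, -6.54, -6.30, -6.74 and -6.25 on PTD7, against -6.66, -5.18 and -4.03 as the lowest, median and highest control. All 5 livers were below the control mean, and only 1 control lay within their range. The difference was -1.16 ± 0.415 (limma p = 0.0148, exact p = 0.0227) on PTD7 and -0.95 ± 0.42 (limma p = 0.0398, exact p = 0.0505) on PTD15, neither past the threshold. Without day 30 control replicate 3 both passed, at -1.39 and -1.19. Within run period 1 it was -1.42 on PTD7 and -1.22 on PTD15, without overlap on either day (exact p = 0.0179, the smallest possible), as 7.45% and 5.32% of all miRNAs were lower there. miR-142-3p, from the same hairpin, differed by -0.36 on PTD7 and -0.25 on PTD15 from the pooled controls, and by 0.21 and 0.32 within run period 1, each with overlap.

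The gap between the arms was set beside a technical well. The array holds 2 wells that control the reverse transcription (RT), and their Ct difference, first well less second, was above 0 in 12 arrays and below 0 in 23. miR-142-3p minus miR-142-5p lay between 5.18 and 6.00 in the former and between 3.63 and 5.49 in the latter. The 12 arrays were 4 of PTD7, 3 of PTD15, 3 of PTD3 and the 2 controls of run period 3. Within PTD3, livers 1 and 2 had gaps of 4.625 and 3.63 and RT differences below 0, while livers 3, 4 and 5 had gaps of 5.85, 5.55 and 5.785 and RT differences above 0. miR-142-5p itself was -4.555 and -3.25 in the former and -6.41, -6.18 and -6.55 in the latter. Within PTD7 and PTD15 the gaps did not divide in this way. On PTD15 they were 5.36 to 5.44 in the 2 arrays with an RT difference below 0 and 5.18 to 5.65 in the other 3, and on PTD7 5.49 in the 1 array below 0 and 5.36 to 5.73 in the other 4. The 5.18 is from PTD15 replicate 3, the only well of the 7 miRNAs with a quality flag (HRN) from the instrument software. These sets were seen in the values and were given no test. With the RT difference as a covariate the miR-142-5p difference on PTD7 was -0.685 ± 0.35 (limma adjusted p = 0.336) and on PTD15 -0.64 ± 0.365 (adjusted p = 0.328).

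**Figure D4:**
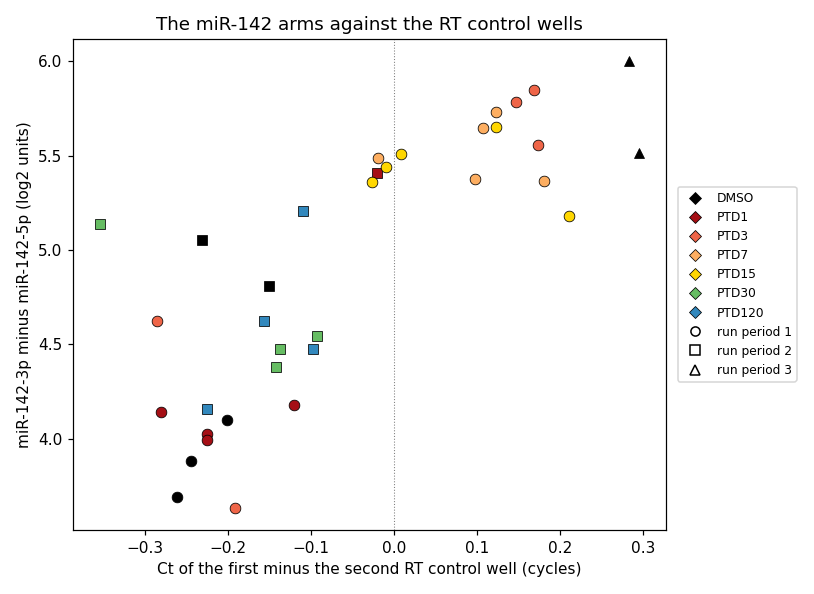
miR-142-3p minus miR-142-5p (log2 units) against the Ct difference of the 2 RT control wells (cycles) in all 35 arrays, with the group as colour and the run period as shape. Arrays right of the dotted line have gaps from 5.18 to 6.00, and all 10 arrays of PTD7 and PTD15 lie between 5.18 and 5.73.

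Late after treatment the 7 miRNAs were higher on average than the pooled controls. On PTD30 the differences ran from 0.066 for miR-150 to 0.90 for miR-142-5p, with a median of 0.53, and the median over all 376 miRNAs was 0.54. None passed the threshold in limma, against 1.6% of all miRNAs, and none had an unadjusted p under 0.05, against 10.6%. On PTD120 the differences ran from 0.24 for miR-146a to 1.455 for miR-142-5p, with a median of 0.72 against 0.46 over all miRNAs, and 1 of 7 passed against 1.33% of all. At an unadjusted p under 0.05 there were 3 of 7, against 8.78%. Not all of these signs held on the scale of the median Ct, where miR-150 (-0.34), miR-146a (-0.21) and miR-146b (-0.074) were below 0 on PTD30 and miR-146a (-0.18) on PTD120. Nor did all of them hold within run period 2, with 4 ENU livers a day against 2 controls. On PTD30 miR-150 (-0.55), miR-146a (-0.455), miR-146b (-0.12) and miR-142-3p (-0.011) were below those controls on average, miR-223 (0.10), miR-142-5p (0.28) and miR-155 (0.30) were above, and the ranges overlapped for all 7. On PTD120 miR-146a (-0.41) and miR-150 (-0.11) were below and the other 5 were above, from 0.20 for miR-146b to 0.84 for miR-142-5p. From PTD30 to PTD120 none of the 7 passed, against 0.798% of all. The marker lists were higher too, with medians on PTD30 of 0.64 for hepatocyte, 0.59 for endothelial, 0.54 for mesenchymal and 0.66 for erythroid miRNAs, and on PTD120 of 0.44, 0.49, 0.76 and 0.34, and their part in these values was not tested.

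That 1 was miR-142-3p. Its levels on PTD120 were 0.61, 0.78, 0.46 and 1.48, against -1.61, -0.34 and 0.65 as the lowest, median and highest control. All 4 livers were above the control mean, and 2 of them lay below the highest control. The difference was 1.35 ± 0.43 (limma p = 0.00780, adjusted p = 0.446, exact p = 0.0212), a 2.55-fold higher level. Within run period 2, with controls at -0.027 and 0.65, it was 0.52 (exact p = 0.40), and the call was lost. It was also lost on the scale of the median Ct (0.93) and without any 1 of 9 of the 11 samples, with differences from 1.13 to 1.47. It held without day 30 control replicate 1 (1.54) or replicate 2 (1.43). With the 5 controls of the first 2 run periods miR-142-3p was no longer called (1.36), and miR-223 was called in its place (1.41).

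The other arm and the granulocyte miRNA also had values above the control mean in all 4 livers. miR-142-5p was at -3.87, -4.43, -4.17 and -2.67 on PTD120, with a difference of 1.455 ± 0.51 (exact p = 0.0273). miR-223 was at 0.25, 0.17, -0.010 and 0.54, against a highest control of 0.16, with a difference of 1.12 ± 0.42 (exact p = 0.0273). Within run period 2 they were 0.84 (exact p = 0.267) and 0.66 (exact p = 0.0667, the smallest that 4 against 2 samples allow) above the controls. The 4 miR-223 values were above both controls of that period, at -0.685 and -0.16, a position that 3.19% of all miRNAs held. No DMSO liver of PTD120 was analysed, so time after injection and ENU cannot be told apart here.

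From PTD15 to PTD30 the levels of both miR-142 arms did not overlap, but all PTD15 arrays were of run period 1 and all PTD30 arrays of run period 2. miR-142-5p went from a highest PTD15 level of -5.78, in the flagged well of replicate 3, to levels of -5.235, -3.77, -3.52 and -4.815, a difference of 1.855 ± 0.39 (limma adjusted p = 0.00799, exact p = 0.00794). The call was lost with run period as a block (a difference of 2.10), and with the RT difference as a covariate the difference was larger, 2.79. In that comparison 19.1% of all miRNAs passed the threshold, and 12.0% were higher without overlap. miR-142-3p differed by 1.06 ± 0.35 (limma p = 0.0111, exact p = 0.00794), just short of the threshold, and passed at 1.31 without PTD30 replicate 4. The other 5 miRNAs differed by between -0.17 and 0.37, and the median over all miRNAs was 0.125. The 10 other leukocyte or inflammation miRNAs had a median of 0.34, from -0.86 for miR-21* to 1.17 for miR-342-5p. Of these 1 passed, miR-212 at 1.08 (limma adjusted p = 0.0421). The medians of the other lists were 0.45 for hepatocyte, 0.17 for mesenchymal, -0.031 for endothelial and -0.38 for erythroid miRNAs, with 0 past the threshold. The day and the run period cannot be told apart in this step.

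Ordered by mean level, PTD1 was the lowest of the 7 groups for 6 miRNAs, and PTD7 was the lowest for miR-142-5p. PTD120 was the highest for all 7. These places were not particular to the 7. The hepatocyte (5.02), endothelial (2.45), mesenchymal (-3.42) and other leukocyte or inflammation (-5.625) lists also had their lowest group mean on PTD1. The erythroid list had its lowest in the controls (-3.25). On PTD120 the mesenchymal (-2.28) and other leukocyte or inflammation (-4.51) lists were highest, and the hepatocyte, endothelial and erythroid lists were not. The share over all miRNAs was not computed. Of the 42 steps between neighbouring groups in these orders, 1 had an exact p under 0.05, that of miR-150 from PTD1 at -4.32 to PTD3 at -2.80. The orders were made from the same values, so neighbours are the groups with the closest means. The p values take no account of this, and a large one does not show that groups were alike. The groups of the other 41 steps overlapped.

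The question set by the choice of miRNAs is whether lymphocyte, pan-leukocyte and myeloid members moved apart. It was put to differences between 2 miRNAs on the same array, in which the reference RNAs cancel. miR-142-3p alone stood for the pan-leukocyte members. miR-142-5p, whose values differed from those of its partner arm, was in no pair, so the answer does not cover it. Across 6 pairs and 6 PTDs, 36 comparisons were made and 0 passed the threshold in limma. At an unadjusted limma p under 0.05 there was 1, miR-150 minus miR-155 on PTD1, where 27.5% of all other assays set against miR-155 had one. An exact p under 0.05 was reached by 5 comparisons, all of them with miR-150, and the share of all assays that reached it is given with each. For the background of the threshold, every other assay was set against the same second miRNA. Against miR-223, 0.8% of them passed on PTD1, 2.4% on PTD3, 10.4% on PTD7, 8.27% on PTD15, 1.07% on PTD30 and 8.27% on PTD120. Against miR-142-3p the shares were 2.4%, 2.67%, 13.1%, 15.2%, 0.267% and 5.87% in the same order. Against miR-155 they were 5.6%, 6.93%, 13.6%, 10.1%, 0.533% and 1.33%.

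miR-150 minus miR-223, lymphocyte against myeloid, was -3.07, -1.10, -1.81, -3.94 and -3.08 on PTD1, with controls from -2.43 to -1.40 and a control median of -1.615. Thus 3 of 5 livers lay below all controls and 1 lay above them. The difference was -0.89 ± 0.475 (limma p = 0.0811, exact p = 0.0770), and -0.68 within run period 1 (exact p = 0.343). miR-150 minus miR-142-3p differed by -0.84 ± 0.425 (limma p = 0.0660, exact p = 0.0429, against 11.5% of all assays). miR-150 minus miR-155, within the lymphocyte pair, differed by -0.725 ± 0.31 (limma p = 0.0339, adjusted p = 0.148, exact p = 0.0240, against 28.3% of all assays), with 4 of 5 livers below the control mean of 3.47. So the estimate for miR-150 was lower than for each of the other 3, but no pair passed the threshold of the study against the pooled controls. With run period as a block miR-150 minus miR-223 did pass, at -1.16 ± 0.40 (limma adjusted p = 0.4445), as did 1.33% of all assays set against miR-223.

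The pairs without miR-150 differed by less on PTD1. miR-155 minus miR-223 differed by -0.16 ± 0.46, miR-142-3p minus miR-223 by -0.045 ± 0.47 and miR-155 minus miR-142-3p by -0.115 ± 0.46. With errors of this size the data do not show that these miRNAs moved alike.

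Between PTD3 and PTD15 the pairs with miR-150 had no common sign. miR-150 minus miR-142-3p differed by -0.425, 0.52 and 0.48 on PTD3, PTD7 and PTD15, miR-150 minus miR-223 by -0.29, -0.007 and -0.21, and miR-150 minus miR-155 by 0.27, -0.15 and -0.32. Nor did the pairs without miR-150. miR-155 minus miR-142-3p differed by -0.70, 0.67 and 0.81, miR-142-3p minus miR-223 by 0.13, -0.53 and -0.69, and miR-155 minus miR-223 by -0.56, 0.14 and 0.11, none past the threshold. With run period as a block, 2 of these passed. They were miR-155 minus miR-223 on PTD3, at -1.01 ± 0.35 (limma adjusted p = 0.0492), where 16.8% of all assays set against miR-223 passed, and miR-142-3p minus miR-223 on PTD15, at -1.17 ± 0.41 (limma adjusted p = 0.0339), where 22.7% passed. On PTD30 and PTD120 the 3 pairs with miR-150 were all below 0. The PTD120 values leaned on replicate 4, the lowest liver in each pair. It stood at -3.28 against miR-223, -4.22 against miR-142-3p and 2.13 against miR-155. The other PTD120 livers lay from -2.19 to -1.81, from -2.55 to -2.42 and from 3.06 to 4.23, with control means of -1.72, -2.08 and 3.47. miR-150 minus miR-155 differed by -0.47 and -0.215, with exact p of 0.0788 and 0.603. miR-150 minus miR-223 differed by -0.495 ± 0.265 on PTD30 (exact p = 0.0485, against 5.07% of all assays) and by -0.62 ± 0.335 on PTD120 (exact p = 0.0424, against 32.8%). miR-150 minus miR-142-3p differed by -0.75 ± 0.40 on PTD30 (exact p = 0.0455, against 2.93%) and by -0.85 ± 0.48 on PTD120 (exact p = 0.0545). All limma p values of the last 4 were above 0.05, from 0.0787 to 0.0940. Within run period 2, miR-150 minus miR-223 was between -2.62 and -1.85 on PTD30 and between -3.28 and -1.81 on PTD120, below both controls at -1.615 and -1.51 (exact p = 0.0667 and 0.20). Of all assays set against miR-223, 4.8% on PTD30 and 37.3% on PTD120 were lower without overlap there. The pair within the lymphocyte members, miR-150 minus miR-155, was also without overlap on PTD30. It lay between 2.84 and 3.235 against controls at 3.76 and 3.93, a difference of -0.85 (exact p = 0.0667). On PTD120 this pair overlapped the controls, and miR-150 minus miR-142-3p did so on both days. The share of all assays was not computed for these pairs.

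**Figure D5:**
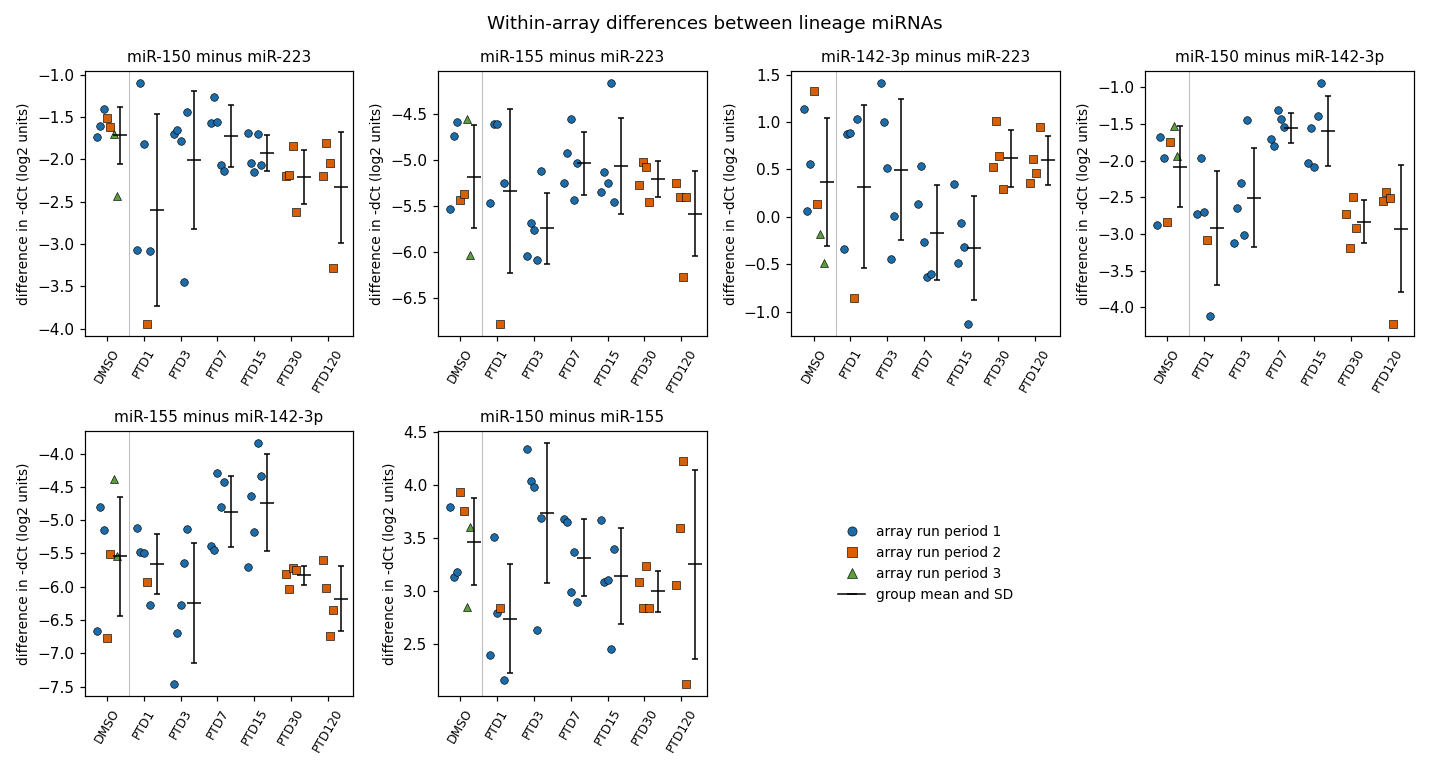
Within-array differences in -ΔCt (log2 units) for the 6 pairs of lineage miRNAs, by group, with the run period as colour and shape and the group mean and SD beside the points. miR-150 minus miR-223 spreads from -3.94 to -1.10 on PTD1 and from -2.43 to -1.40 in the controls.

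How far the 7 miRNAs varied together was described by Pearson's r over the 35 arrays after the mean of each run period was removed. The arrays share the reference RNAs and the RNA input of each liver, so these values carry no test. Over the 21 pairs r ran from -0.030 to 0.93 with a median of 0.685, and on the scale of the median Ct from -0.265 to 0.90. The highest was that of miR-146b and miR-223, 0.93 (0.90 on the scale of the median Ct). miR-146b and miR-146a, which share a seed but not a chromosome, had 0.76. miR-142-5p had 0.72 with its own partner arm and between -0.030 and 0.11 with the 5 others.

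Among all assays with a mean Ct of at most 30, those closest to miR-150 were miR-10a with r = 0.795, miR-146a with 0.79 and miR-99b with 0.77. miR-223 was closest to miR-146b, miR-10a (0.91) and miR-21 (0.90). miR-155 was closest to miR-15b (0.87), miR-146b (0.84) and miR-24 (0.82), and miR-146a to miR-532-5p (0.825), miR-10a (0.81) and miR-26b (0.81). miR-146b was closest to miR-223, miR-322 (0.925) and miR-199b (0.92). miR-142-3p was closest to miR-362-3p (0.83), miR-29c (0.74) and miR-199a-5p (0.73). miR-142-5p was closest to miR-181c (0.83), then to miR-142-3p, and then to miR-431 (0.655).

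Markers of other cells were read on the later days as well. miR-144 and miR-451, which are made in red cell precursors, were higher on PTD15 by 1.52 ± 0.35 (limma adjusted p = 0.0162) and 1.04 ± 0.34 (adjusted p = 0.0635). Both passed the threshold, against 11.4% of all miRNAs on that day. miR-486, of the same list, did not pass (0.81 ± 0.42, limma adjusted p = 0.224). The mean of the 3 erythroid miRNAs was between -2.99 and -1.62 on PTD15 and between -3.58 and -3.05 in the controls. The hepatocyte, endothelial and mesenchymal lists had 0 miRNAs past the threshold on every PTD, and so did the list of 10 other leukocyte or inflammation miRNAs. That list had a median difference of 0.78 on PTD120 and its mean -ΔCt lay between -4.89 and -3.91 there and between -5.66 and -4.645 in the controls. Its part in the values of miR-142 and miR-223 on that day was not tested.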

How the data were processed

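Small RNA of 35 livers was measured on 384-well SYBR Green arrays, 1 per mouse. The authors deposited the Ct of each well, calculated by SDS 2.3 with a fixed threshold line of 0.15, without normalization. Wells were named through the array layout of the study's supplement. From the Ct values -ΔCt was computed as the mean Ct of the 4 reference RNAs minus the Ct of the miRNA, and 15 undetermined wells, none of the 7 miRNAs, were left out. The deposited file of PTD3 replicate 3 differs from the study's supplementary Ct table, and the deposited file was used; miR-150 on PTD3 against PTD1 was called without it too. PCR arrays give no read depth, and their number limits the precision.

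Each PTD was compared with the 7 pooled controls, as in the study, in limma 3.58.1 under R 4.3.3 over all 376 miRNAs without covariate, 1 fit per PTD, with Benjamini-Hochberg adjustment. A miRNA was called with p under 0.01 and a fold above 2, the study's thresholds. Neighbouring PTDs were fitted alike, and for pairs all other assays were taken relative to the second miRNA. Exact permutation tests were two-sided, and within a run period covered its samples only. Python 3.11.15 with numpy 2.4.6, scipy 1.17.1, pandas 2.3.3 and matplotlib 3.10.9 did the rest. The fit was tested on simulated data. Samples were grouped by their labels, which give 3 and 4 controls where the Methods give 4 and 3. Replicate numbers mark different mice and do not pair the samples.

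The members and marker lists were chosen with earlier results of these data known. The comparison of day 1 with day 30 controls, controls without run period 3, and the median Ct scale combined with day 1 controls or 1 run period were added after the values were seen. Sequences and positions are from RefSeq (GRCm38.p6). Named miRNAs are the 7, the marker lists and, for each of the 7, the 3 most alike with a mean Ct of at most 30.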

Additional observations from a re-analysis of the deposited data

Results flagged for a closer look

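Among 91 sets of values (7 miRNAs and 6 pairs in each of 7 groups), 5 held a sample that stood farther from the others than Dixon's critical value, and chance gives about 1 in 20. All 5 were pair differences. miR-150 minus miR-223 was -2.43 in control replicate 4 of day 30, with the other controls between -1.74 and -1.40. The same pair was -3.45 in PTD3 replicate 4, with the others between -1.79 and -1.44. miR-155 minus miR-223 was -4.16 in PTD15 replicate 4, with the others between -5.46 and -5.13, and -6.275 in PTD120 replicate 3, with the others between -5.41 and -5.25. miR-150 minus miR-142-3p was -4.22 in PTD120 replicate 4, with the others between -2.55 and -2.42. That liver also had the highest miR-142-3p of all 35, 1.48, and its miR-150 was -2.74.

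The change against the controls differed between days for 2 miRNAs by a test of the difference itself. miR-150 was 1.515 higher on PTD3 than on PTD1, and miR-142-5p was 1.855 higher on PTD30 than on PTD15, where the days also differ in run period and the call was lost with run period as a block.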

How the results depend on the processing

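On PTD1 the count of 2 called miRNAs fell to 1 (miR-150) with run period as a block, the RT control difference as a covariate, the exact test, the methods' t-test, the median Ct scale (also with day 1 controls or within run period 1), references without snoRNA202, undetermined wells at Ct 40, or controls of the first 2 run periods. It fell to 0 with day 1 controls, within run period 1 or at an adjusted p under 0.05, and rose to 3 with day 30 controls, where miR-155 (-1.41) joined miR-150 (-2.21) and miR-146a (-1.92). Leaving out 1 sample gave 1 to 2 on PTD1, 0 to 1 on PTD7, PTD15 and PTD120, and 1 to 2 for PTD3 against PTD1 and PTD30 against PTD15. miR-150 was called without each of the 12 samples, with differences from -1.86 to -1.58.

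On PTD7 the count rose from 0 to 1 (miR-142-5p) with day 1 controls, controls of the first 2 run periods, within run period 1, with run period as a block, with miRNAs of a mean Ct of at most 30, and on the median Ct scale with day 1 controls or within run period 1. For the sample left out, it was day 30 control replicate 3 that gave 1 call on PTD7 and on PTD15, miR-142-5p at -1.39 and -1.19. On PTD15 the count rose from 0 to 1 with day 1 controls and within run period 1 (miR-146b, 1.16), with run period as a block (miR-223, 1.30), and with controls of the first 2 run periods or the 2 median Ct combinations (miR-142-5p, -1.36 and -1.70). On PTD30 it rose from 0 to 2 with day 1 controls (miR-146b and miR-223).

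On PTD120 the count of 1 rose to 4 with day 1 controls, to 3 with the RT covariate and to 2 with references without snoRNA202 or a mean Ct of at most 30. It fell to 0 with day 30 controls, within run period 2, with run period as a block, the exact test, the median Ct scale (also with day 1 controls or within run period 2), references without snoRNA142 or U6, and an adjusted p under 0.05. With the replicate block it also fell to 0 (miR-142-3p, 1.29), and the block changed no other count. The numbers pair no mice.

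For PTD3 against PTD1 the count of 1 rose to 4 with run period as a block and to 2 in 1 fit of all groups, and fell to 0 at an adjusted p. For PTD30 against PTD15 the count of 1 fell to 0 with run period as a block and the methods' t-test, and rose to 2 with the exact test, references without U6 or a mean Ct of at most 30. There miR-223 turned from 0.11 to -1.295 with run period as a block. Of the pairs, 0 called became 1 with run period as a block on PTD1 (miR-150 minus miR-223, -1.16), PTD3 (miR-155 minus miR-223, -1.01) and PTD15 (miR-142-3p minus miR-223, -1.17), and within run period 2 on PTD1, where 1 ENU liver stood against 2 controls (exact p = 0.333). The cause of these changes was not tested.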
